A study of Mus musculus with 18 samples.

Results

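The genes described are 9 transcription factors that direct or mark the fates of CD4 helper T cells: Tbx21, Eomes and Runx3 of the Th1 program, Gata3 and Maf of the Th2 program, Rora of the Th17 program, Foxp3 of regulatory T cells, and Bcl6 and Prdm1, which oppose each other in the choice of the follicular helper fate. They were taken by name, through every probe set annotated to these symbols alone. This gave 25 probe sets of 34945 with 1 gene symbol, and 9 genes of 18193. Rora had 9 probe sets, Maf 6, Bcl6, Eomes and Runx3 2 each, and Tbx21, Gata3, Foxp3 and Prdm1 1 each.

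RNA came from splenic CD4 T cells of C57BL/6 mice aged 9 to 15 weeks, purified on magnetic beads, and was hybridised to Affymetrix mouse arrays. The 6 groups, of 3 arrays each, were cells of WT, Gli2A Tg and Gli2R Tg mice, either resting (RNA taken straight after purification) or stimulated for 6 h with antibodies to CD3 and CD28, the antigen receptor complex and its main costimulator. Gli2 carries the Hedgehog signal to DNA. Gli2A denotes its activator form and Gli2R its repressor form. The labels name no promoter for the transgenes. No culture without antibodies was analysed here for any genotype, so 6 h of culture and stimulation cannot be told apart. The labels do not say whether the 3 arrays of a group came from separate mice, so the p-values speak only of the spread among these arrays. In resting WT, stimulated WT and stimulated Gli2R the sex pattern, given below, differed within the group. The 3 arrays of each of these groups were therefore not all from the same mouse. In the other groups the spread may be technical.

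As background, a naive CD4 cell takes on a helper fate when receptor signals and cytokines raise a lineage-defining factor. T-bet (Tbx21) drives interferon-gamma production, GATA-3 the interleukin-4 gene cluster, ROR-alpha acts in interleukin-17-producing cells, and Foxp3 holds the suppressive state. These factors restrain one another, so that their balance, more than any single level, is known to set the fate.

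The starts of 4 of these genes are shown first: Tbx21 and Eomes, which are T-box relatives and rose together on stimulation in all 3 genotypes, Bcl6, and Prdm1, the target that Bcl6 is known to repress. RefSeq promoter windows (GRCm38.p6) were found for 8 of the 9 genes, 11 windows in all, and the 250 bases before each start were searched on both strands. The motifs were those of Gli (GACCACCCA), NFAT (GGAAAA), AP-1 (TGANTCA), T-box factors (TCACACCT), GATA factors (AGATAA), RUNX factors (TGTGGT), STAT factors (TTCNNNGAA) and the TATA box (TATAAA). Each sequence runs 5′ to 3′ on the gene's strand up to the base before the start, and capitals mark the motif matches.
Tbx21, chr11:97115332-97115581, minus strand: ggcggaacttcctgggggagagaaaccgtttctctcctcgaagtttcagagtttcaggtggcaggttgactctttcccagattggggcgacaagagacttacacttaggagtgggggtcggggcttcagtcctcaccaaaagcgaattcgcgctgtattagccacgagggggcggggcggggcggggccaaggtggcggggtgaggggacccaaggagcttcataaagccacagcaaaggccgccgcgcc
Eomes, chr9:118477939-118478188, plus strand: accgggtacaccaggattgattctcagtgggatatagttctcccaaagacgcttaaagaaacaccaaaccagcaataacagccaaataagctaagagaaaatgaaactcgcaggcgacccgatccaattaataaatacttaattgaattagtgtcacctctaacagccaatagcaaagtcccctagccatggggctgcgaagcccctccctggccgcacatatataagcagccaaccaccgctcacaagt
Bcl6, chr16:23981284-23981533, minus strand: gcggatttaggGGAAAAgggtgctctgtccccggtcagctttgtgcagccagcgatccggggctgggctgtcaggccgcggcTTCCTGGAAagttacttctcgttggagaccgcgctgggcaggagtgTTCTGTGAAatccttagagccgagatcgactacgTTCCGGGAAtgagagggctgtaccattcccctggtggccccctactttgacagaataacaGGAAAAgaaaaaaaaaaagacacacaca
Prdm1, chr10:44458749-44458998, minus strand: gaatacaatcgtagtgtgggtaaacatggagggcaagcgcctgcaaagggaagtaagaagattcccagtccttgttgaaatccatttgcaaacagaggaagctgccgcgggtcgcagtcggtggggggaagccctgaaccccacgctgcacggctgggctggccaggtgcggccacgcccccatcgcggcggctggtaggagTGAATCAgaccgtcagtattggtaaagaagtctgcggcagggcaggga

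The Bcl6 window held 3 STAT matches and 2 NFAT matches, and the other Bcl6 window held 1 STAT match. STAT matches were present in 7.02% of 32851 mouse windows of this length and NFAT matches in 20.4%. In the Prdm1 window, the AP-1 letters TGAATCA lay 48 to 42 bases before the start; AP-1 matches were present in 6.75% of windows. The Tbx21 and Eomes windows held none of the 8 motifs. The Gli motif was in none of the 11 windows and in 0.225% of all windows. Of the others, a Runx3 window held 2 RUNX matches (14% of all windows), and the Rora window held an NFAT match. The 1st Foxp3 window held a TATA match (12.4% of all windows). The 2nd Foxp3 window held an NFAT, an overlapping STAT and a GATA match, the last found in 9.99% of all windows. A match says only that the letters are there.

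Values are log2(intensity + 16) after quantile normalisation, and a difference is stimulated minus resting, or transgenic minus WT, on that scale. This scale understates the change of dim probe sets. A gene is called where limma's adjusted p is under 0.05, and unless said otherwise a gene is read from its brightest probe set. Overlap between the arrays of groups is stated as a description, since the share of all genes without overlap is not given. The table holds no detection calls. 4 of the 25 probe sets lay below the 25th percentile of gene levels (5.37): 2 of Rora, 1 of Maf and 1 of Runx3.

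The arrays correlated at 0.971 to 0.981 within groups. Ptch1, a direct target of Gli factors, checked the Gli2A label: its brightest probe set averaged 13.49 in resting Gli2A cells against 10.38 in WT and 10.40 in Gli2R cells, and 12.27 against 10.14 and 10.09 after stimulation. It did not separate Gli2R from WT. Replicate 2 of stimulated Gli2A had an actin 3′ to 5′ ratio of 3, against 1.26 to 1.82 in the other arrays. Xist and Y-linked genes showed a male pattern in 5 arrays: in stimulated Gli2R 2, in resting WT 2 and in stimulated WT 1. Among the 9 genes, replicate 3 of stimulated Gli2R was the lowest array of its group in 8 and the lowest of all 18 in Gata3, Rora, Maf and Prdm1, and replicate 3 of resting Gli2R was the lowest of its group in 8. The T cell list was high in the resting cells, with Cd3e at 13.01 and Cd4 at 11.10 in WT.

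Markers of myeloid cells were also high in the resting arrays. The 18 myeloid markers summed to an intensity of 83800 to 127000 in resting WT, 151000 to 165000 in resting Gli2A and 66900 to 82600 in resting Gli2R arrays. After stimulation the sums were 1630 to 2410 in WT, 2470 to 6120 in Gli2A and 1550 to 2040 in Gli2R, and 17 of the 18 fell in each genotype, with none at 0. The 9 T cell markers summed to 87700 to 104000 in resting and 48700 to 54200 in stimulated WT arrays, with 76000 to 101000 and 49300 to 55000 in Gli2A, and 106000 to 115000 and 51100 to 56800 in Gli2R. In bulk RNA, fewer cells of a type and less of its RNA per cell cannot be told apart.

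Most calls among these factors came from stimulation. In WT cells 2 of the 9 rose (Tbx21, Eomes) and 1 fell (Maf). In Gli2A cells 3 rose (Tbx21, Eomes, Bcl6) and 2 fell (Maf, Prdm1), and in Gli2R cells the same 3 rose while the other 6 fell. The background was large: 41.7% of all genes were called in WT cells (3576 higher and 4008 lower), 42.9% in Gli2A cells (3666 and 4146) and 42.3% in Gli2R cells (3604 and 4099). The shares in WT and Gli2A are near that background, and the 9 of 9 in Gli2R is above it, although the Gata3 and Foxp3 calls were lost without single arrays and the Bcl6 call under other scalings. With the deposited scaling alone 6 were called in WT, adding falls of Foxp3, Prdm1 and Runx3. Without replicate 2 of stimulated Gli2A 4 of the 9 were called in Gli2A. In Gli2R 7 were called without replicate 3 of the stimulated group and 9 without replicate 3 of the resting group. The median difference of the 9 genes was -0.09 in WT, -0.33 in Gli2A and -0.73 in Gli2R, beside medians of 0, 0 and 0.01 over all genes.

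**Figure D1:**
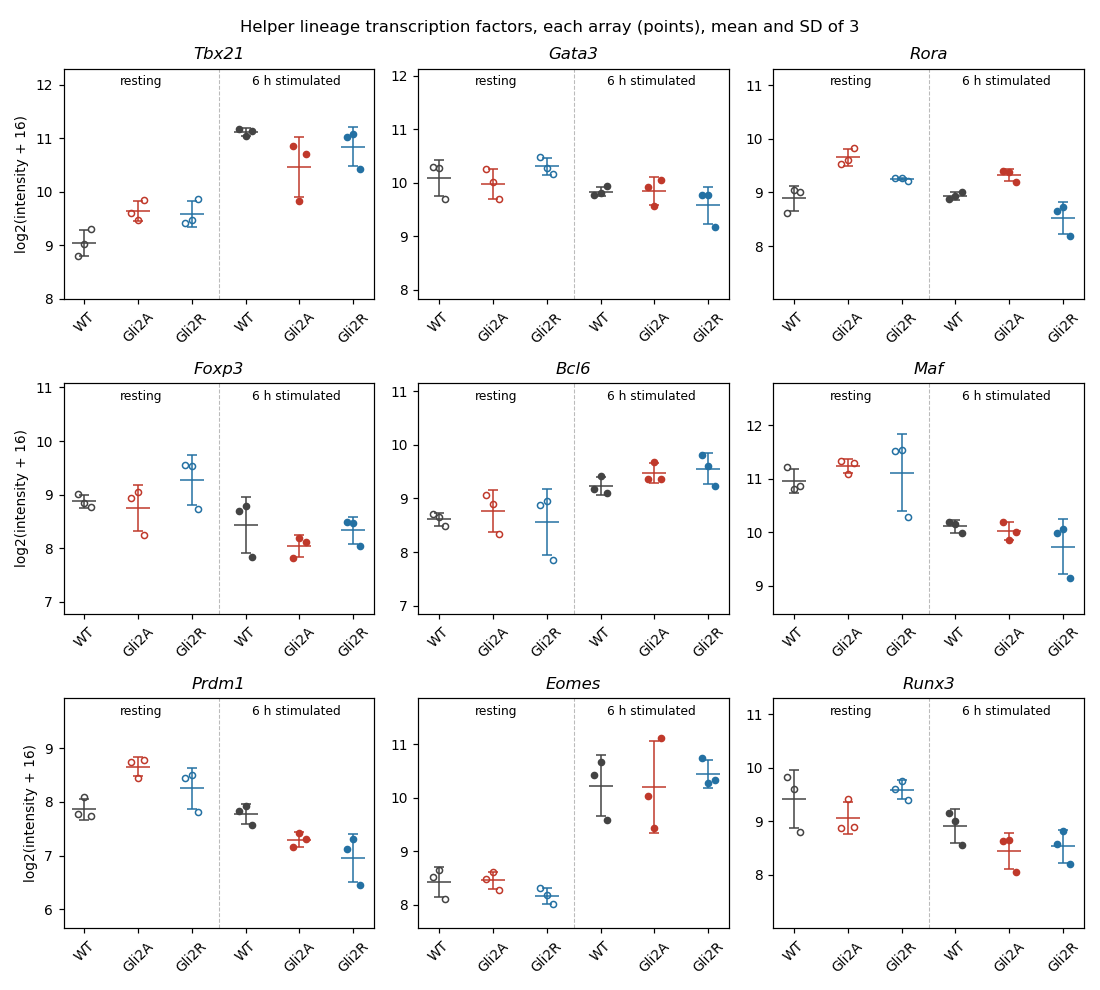
Each of the 9 genes in all 18 arrays, from its brightest probe set (y axis, log2 of intensity plus 16, not starting at 0). Points are arrays, open for resting and filled for stimulated, and bars are the mean and SD of 3; the Tbx21 and Eomes points of stimulated WT lie above all resting WT points, and the Maf points lie below them.

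Tbx21 encodes T-bet, the factor that defines Th1 cells. Its level in resting WT cells was 8.80, 9.03 and 9.30, and after stimulation it was 11.17, 11.04 and 11.14. In Gli2A cells it was 9.61, 9.47 and 9.84 at rest and 10.86, 9.82 and 10.71 after stimulation. In Gli2R cells it was 9.41, 9.48 and 9.86 at rest and 11.02, 11.08 and 10.43 after stimulation. The stimulated arrays lay above the resting arrays in WT and Gli2R, whereas in Gli2A replicate 2, the array with the high actin ratio, lay just inside the resting range. Tbx21 rose 4.21-fold in WT (2.07 ± 0.25 SE, adjusted p = 7.55e-06), 1.77-fold in Gli2A (0.83 ± 0.25, adjusted p = 0.0148) and 2.40-fold in Gli2R (1.26 ± 0.25, adjusted p = 0.000761). Without replicate 2 of stimulated Gli2A the Gli2A difference was 1.15 (adjusted p = 0.00063). The Gli2A call was lost without resting Gli2A replicate 2 (0.74, adjusted p = 0.0554), without stimulated Gli2A replicate 1 (0.63, 0.0799) or without replicate 3 (0.70, 0.0639), and with the deposited scaling (0.63, 0.0696) or the compared groups alone (0.83, 0.0713). Ordered by mean, stimulated WT was highest (11.12), then stimulated Gli2R (10.84) and stimulated Gli2A (10.47), then resting Gli2A (9.64) and resting Gli2R (9.58), each range overlapping the next, and resting WT (9.04) lay below all other groups.

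Eomes, the T-box relative of T-bet found in memory and cytotoxic cells, showed the largest rises among the 9 genes in the transgenic cells. In WT it went from 8.52, 8.66 and 8.11 to 10.42, 10.67 and 9.59. In Gli2A it went from 8.48, 8.61 and 8.28 to 10.03, 9.43 and 11.12. In Gli2R it went from 8.32, 8.18 and 8.01 to 10.74, 10.27 and 10.33. No stimulated array overlapped a resting array in any genotype. Eomes rose 3.48-fold in WT (1.80 ± 0.35, adjusted p = 0.000622), 3.34-fold in Gli2A (1.74 ± 0.35, adjusted p = 0.000789) and 4.85-fold in Gli2R (2.28 ± 0.35, adjusted p = 7.4e-05). Its other probe set, 1435172_at, rose by 1.24, 1.21 and 1.78. The 3 stimulated groups averaged 10.44 (Gli2R), 10.23 (WT) and 10.20 (Gli2A) and overlapped, as did the resting groups at 8.46 (Gli2A), 8.43 (WT) and 8.17 (Gli2R).

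Runx3, which works with T-bet at the interferon-gamma gene and marks cytotoxic cells, went the other way. In WT it was 9.83, 9.61 and 8.80 at rest and 9.16, 9.01 and 8.55 after stimulation, which overlap. In Gli2A it was 8.88, 9.41 and 8.90, then 8.63, 8.65 and 8.05, and in Gli2R 9.61, 9.75 and 9.40, then 8.57, 8.81 and 8.21. The stimulated arrays were all below the resting ones in both transgenic genotypes. Runx3 fell 2.08-fold in Gli2R (-1.06 ± 0.27, adjusted p = 0.00519), and the difference was -0.51 ± 0.27 in WT (adjusted p = 0.159) and -0.62 ± 0.27 in Gli2A (adjusted p = 0.0828). Runx3 was called in WT without resting WT replicate 3 (-0.81, adjusted p = 0.0219), with the deposited scaling (-0.83, 0.0193) and with the mean of both probe sets (-1.0, 0.00741). Runx3 was called in Gli2A with the deposited scaling (-1.0, 0.00565), median centring (-0.83, 0.0391), genes above the median level (-0.62, 0.0426) and a trended robust variance (-0.62, 0.0485). With the replicate number as a block, Runx3 was called in WT (-0.51, adjusted p = 0.0298) and in Gli2A (-0.62, 0.00976). The 2nd probe set, 1421467_at, is dim. It fell by 1.49 on the log2 scale in WT, from 6.68, 6.42 and 5.83 to 4.72, 5.17 and 4.56 (adjusted p = 0.00337 over all probe sets), and in Gli2R (-1.19, adjusted p = 0.0147). Its difference in Gli2A was -0.72 (adjusted p = 0.126). Resting Gli2R (9.59) had the highest mean of the brightest probe set, followed by resting WT (9.41), resting Gli2A (9.06), stimulated WT (8.91), stimulated Gli2R (8.53) and stimulated Gli2A (8.44), each overlapping the next.

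The 11 measured CD8 T and NK cell markers had lower sums after stimulation in each genotype. They summed to 7680 to 7900 in resting WT, 8000 to 9520 in Gli2A and 8900 to 11800 in Gli2R arrays, and after stimulation to 2900 to 3710, 2370 to 2780 and 2720 to 2980. In WT 6 fell and 1 rose, and in each transgenic genotype 8 fell and 1 rose; the member that rose was Cd8a (2.05 in WT), and none was at 0. Their part in the Runx3, Tbx21 and Eomes values was not tested.

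Gata3 is the defining factor of Th2 cells and is also needed to make CD4 cells in the thymus. Its level was 10.30, 10.27 and 9.70 in resting WT and 9.77, 9.80 and 9.94 in stimulated WT, which overlap. In Gli2A it was 10.25, 10.01 and 9.69, then 9.92, 9.56 and 10.06, which overlap too. In Gli2R it was 10.48, 10.28 and 10.16 at rest and 9.78, 9.78 and 9.18 after stimulation, with no overlap. The difference was -0.26 ± 0.21 in WT (adjusted p = 0.383) and -0.14 ± 0.21 in Gli2A (adjusted p = 0.656), and Gata3 fell 1.66-fold in Gli2R (-0.73 ± 0.21, adjusted p = 0.0123). That call was lost without resting Gli2R replicate 1 (-0.64, adjusted p = 0.0517) or stimulated Gli2R replicate 3 (-0.53, 0.072). Group means ran from 10.31 (resting Gli2R) through 10.09 (resting WT), 9.99 (resting Gli2A), 9.85 (stimulated Gli2A) and 9.84 (stimulated WT) to 9.58 (stimulated Gli2R), each overlapping the next.

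Maf encodes c-Maf, which activates the interleukin-4 and interleukin-21 genes and is also a factor of macrophages. In WT it went from 11.22, 10.80 and 10.87 to 10.20, 10.16 and 9.98. In Gli2A it went from 11.34, 11.09 and 11.30 to 10.20, 9.86 and 10.01, and in Gli2R from 11.51, 11.54 and 10.29 to 9.98, 10.07 and 9.14. Every stimulated array was below every resting array of its genotype. Maf fell 1.81-fold in WT (-0.85 ± 0.30, adjusted p = 0.0317), 2.33-fold in Gli2A (-1.22 ± 0.30, adjusted p = 0.00354) and 2.61-fold in Gli2R (-1.38 ± 0.30, adjusted p = 0.00139). The WT call was lost without resting WT replicate 1 (-0.72, adjusted p = 0.112) or 3 (-0.90, 0.0544), and without stimulated WT replicate 1 (-0.90, 0.0543), 2 (-0.88, 0.0612) or 3 (-0.79, 0.0875).

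The other probe sets of Maf gave more than the brightest one did. In each genotype 5 of the 6 fell, with differences of -0.85 to -3.22 in WT; the 6th, 1447945_at, is dim and changed in none. The largest WT difference was that of 1444073_at, from 7.92, 8.56 and 8.52 at rest to 4.69, 4.46 and 6.19 (-3.22 ± 0.35, adjusted p = 2.68e-06). The same probe set changed by -2.28 in Gli2A and -2.59 in Gli2R. Called one probe set at a time, 39.3% of all probe sets changed in WT, 40.4% in Gli2A and 39.7% in Gli2R. The resting groups averaged 11.24 (Gli2A), 11.11 (Gli2R) and 10.96 (WT) on the brightest probe set, and the stimulated groups 10.11 (WT), 10.02 (Gli2A) and 9.73 (Gli2R), and neighbours within each set overlapped. The myeloid sums fell in the same direction as Maf, and their part in its fall was not tested.

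**Figure D2:**
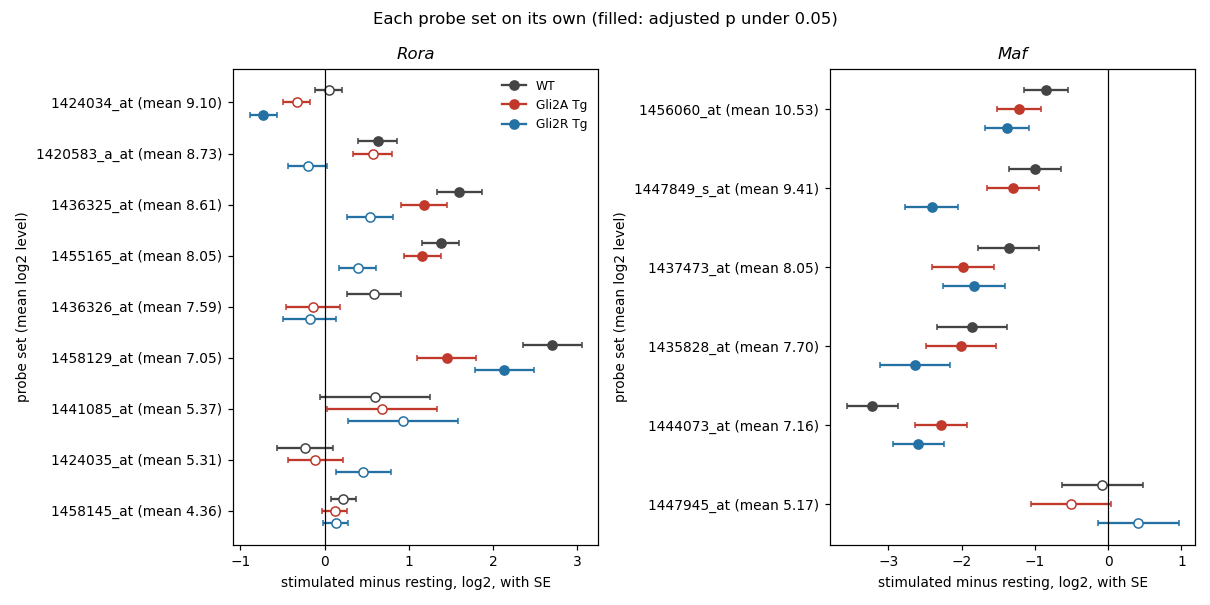
Stimulated minus resting difference (x axis, log2, with SE) of each probe set of Rora and Maf, the brightest at the top, in WT, Gli2A Tg and Gli2R Tg cells; filled points have an adjusted p under 0.05 over all probe sets. For Maf 5 of 6 probe sets have filled points left of 0 in every genotype, whereas the brightest Rora probe set lies at 0.05 in WT and 4 others have filled WT points to the right.

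Rora encodes ROR-alpha, a nuclear receptor that acts in Th17 cells and in several other lymphocytes. Its probe sets disagreed. The brightest, 1424034_at, was 8.62, 9.04 and 9.01 in resting WT and 8.87, 8.93 and 9.01 in stimulated WT, with no separation. In Gli2A it was 9.53, 9.60 and 9.83, then 9.40, 9.38 and 9.20, all lower. In Gli2R it was 9.27, 9.26 and 9.22, then 8.65, 8.73 and 8.19, all lower. It fell 1.65-fold in Gli2R (-0.73 ± 0.16, adjusted p = 0.00146), and the difference was 0.05 ± 0.16 in WT (adjusted p = 0.845) and -0.33 ± 0.16 in Gli2A (adjusted p = 0.11). With the deposited scaling alone the Gli2A difference was called (-0.62, adjusted p = 0.0029).

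Of the 9 Rora probe sets, 4 rose and none fell in WT, 3 rose and none fell in Gli2A, and 1 rose and 1 fell in Gli2R. The largest difference was that of 1458129_at, which went in WT from 6.07, 5.93 and 4.75 to 8.02, 8.26 and 8.57 (2.70 ± 0.35, adjusted p = 1.6e-05) and rose by 1.45 in Gli2A and 2.13 in Gli2R. The probe set 1436325_at went in WT from 7.72, 7.47 and 7.65 to 9.42, 9.07 and 9.14 (1.60 ± 0.27, adjusted p = 0.000173) and rose by 1.18 in Gli2A. Likewise 1455165_at rose by 1.38 in WT and 1.16 in Gli2A. In Gli2R the differences of these latter probe sets were 0.54 (adjusted p = 0.127) and 0.39 (0.182). The 4th that rose in WT was 1420583_a_at (0.63, adjusted p = 0.0454). With the mean of all 9 probe sets as the level of the gene, the difference was 0.84 in WT (adjusted p = 0.000269), 0.51 in Gli2A (0.0113) and 0.39 in Gli2R (0.0489), so the direction of Rora in both transgenic genotypes depends on the probe set read. Which transcripts each probe set reads was not tested.

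Foxp3, the factor that defines regulatory T cells, was 9.01, 8.85 and 8.76 in resting WT and 8.69, 8.79 and 7.84 in stimulated WT, which overlap. In Gli2A it was 8.94, 9.05 and 8.25, then 7.81, 8.20 and 8.11, all lower. In Gli2R it was 9.56, 9.54 and 8.74, then 8.48, 8.47 and 8.05, all lower again. Foxp3 fell 1.92-fold in Gli2R (-0.94 ± 0.28, adjusted p = 0.0138), and the difference was -0.71 ± 0.28 in Gli2A (adjusted p = 0.0578) and -0.43 ± 0.28 in WT (adjusted p = 0.253). The Gli2R call was lost without resting Gli2R replicate 1 (-0.81, adjusted p = 0.061) or 2 (-0.82, 0.0589), or stimulated Gli2R replicate 3 (-0.80, 0.0613). In Gli2A Foxp3 was called without resting Gli2A replicate 3 (-0.96, adjusted p = 0.0171), with the deposited scaling (-1.14, 0.00349), median centring (-0.96, 0.0177), genes above the median level (-0.71, 0.0283), a trended robust variance (-0.71, 0.0326) and a pseudocount of 64 (-0.62, 0.046). The Gli2A difference was called too with the replicate number as a block (-0.71, adjusted p = 0.0126). In WT Foxp3 was called with the deposited scaling (-0.82, adjusted p = 0.0274). Means ran from 9.28 (resting Gli2R), 8.87 (resting WT) and 8.75 (resting Gli2A) to 8.44 (stimulated WT), 8.33 (stimulated Gli2R) and 8.04 (stimulated Gli2A), each overlapping the next.

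Bcl6 is the repressor that defines follicular helper cells. Its brightest probe set was 8.71, 8.65 and 8.48 in resting WT and 9.17, 9.42 and 9.10 in stimulated WT, all higher. In Gli2A it was 9.07, 8.90 and 8.33, then 9.37, 9.69 and 9.37, and in Gli2R 8.88, 8.96 and 7.86, then 9.81, 9.61 and 9.24. No stimulated array overlapped a resting array of its genotype. Bcl6 rose 1.98-fold in Gli2R (0.99 ± 0.27, adjusted p = 0.00701) and 1.64-fold in Gli2A (0.71 ± 0.27, adjusted p = 0.0429), and in WT the difference was 0.62 ± 0.27 (adjusted p = 0.0785). In WT Bcl6 was called among genes above the median level (adjusted p = 0.0394) and with a trended robust variance (0.0457). It was called too with the compared groups alone (0.0181) and with the replicate number as a block (0.0204), all at 0.62. The mean of both probe sets, in contrast, gave -0.01 (0.986). The Gli2A call was lost without resting Gli2A replicate 2 (0.78, adjusted p = 0.0587) or 3 (0.49, 0.189), or without stimulated Gli2A replicate 1 (0.76, 0.0646), 2 (0.61, 0.134) or 3 (0.76, 0.0644). It was lost too with median centring (0.54, 0.165), with the deposited scaling alone (0.37, 0.301), with a pseudocount of 1 (0.73, 0.0528) and with the compared groups fitted alone (0.71, 0.0573). The Gli2R call was lost with median centring (0.71, adjusted p = 0.071), the deposited scaling (0.67, 0.0554) and the compared groups alone (0.99, 0.06), and the difference was 0.64 (0.0345) without resting Gli2R replicate 3.

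The 2nd Bcl6 probe set, 1450381_a_at, is dimmer and went down. In WT it was 6.10, 5.96 and 5.60, then 4.82, 6.20 and 4.72 (-0.64 ± 0.52, adjusted p = 0.371). In Gli2A it was 6.58, 6.08 and 5.15, then 4.56, 4.60 and 5.32 (-1.11 ± 0.52, adjusted p = 0.108). In Gli2R it fell, from 6.69, 7.04 and 4.92 to 4.79, 5.20 and 4.42 (-1.41 ± 0.52, adjusted p = 0.0427), although the ranges overlap. The mean of both probe sets gave -0.20 in Gli2A (adjusted p = 0.725) and -0.21 in Gli2R (0.707), which reverses the direction of Bcl6. On the brightest probe set the stimulated groups averaged 9.55 (Gli2R), 9.48 (Gli2A) and 9.23 (WT) and the resting groups 8.77 (Gli2A), 8.61 (WT) and 8.56 (Gli2R), and neighbours within each set overlapped.

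Prdm1 encodes Blimp-1, a repressor that restrains the growth of effector T cells and acts in plasma cells. In WT it was 7.78, 8.09 and 7.73 at rest and 7.84, 7.93 and 7.57 after stimulation, which overlap. In Gli2A it went from 8.74, 8.45 and 8.78 to 7.16, 7.43 and 7.30, and in Gli2R from 8.45, 8.51 and 7.82 to 7.12, 7.30 and 6.45. In both transgenic genotypes each stimulated array lay below each resting array. Prdm1 fell 2.57-fold in Gli2A (-1.36 ± 0.23, adjusted p = 0.000155) and 2.47-fold in Gli2R (-1.31 ± 0.23, adjusted p = 0.000229), and the difference in WT was -0.09 ± 0.23 (adjusted p = 0.803). With the deposited scaling alone Prdm1 fell in WT too (-0.53, adjusted p = 0.0414). By mean, the transgenic cells stood above WT at rest and below it after stimulation: 8.66 (resting Gli2A), 8.26 (resting Gli2R), 7.87 (resting WT), 7.78 (stimulated WT), 7.30 (stimulated Gli2A) and 6.96 (stimulated Gli2R). In that order only stimulated WT and stimulated Gli2A did not overlap.

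The 13 measured B and plasma cell markers, a class in which Bcl6 and Prdm1 are also active, summed to 31200 to 38400 in resting WT, 38500 to 64200 in Gli2A and 30100 to 41600 in Gli2R arrays. After stimulation the sums were 35100 to 41800, 30000 to 37300 and 32700 to 33300, with none at 0. In WT 1 rose and 4 fell, in Gli2A 2 rose and 5 fell, and in Gli2R 2 rose and 6 fell. Irf8 rose most (4.23 in WT, from 10.03 to 14.25), so the stimulated sums include its rise. Blnk fell most (-3.52 in WT), and Jchain (-1.85) and Cd79b (-1.80) also fell in WT. The median difference of the 13 markers was -0.57 in WT, -0.31 in Gli2A and -1.21 in Gli2R. Their part in the Bcl6 and Prdm1 values was not tested, nor was that of the myeloid markers.

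**Figure D3:**
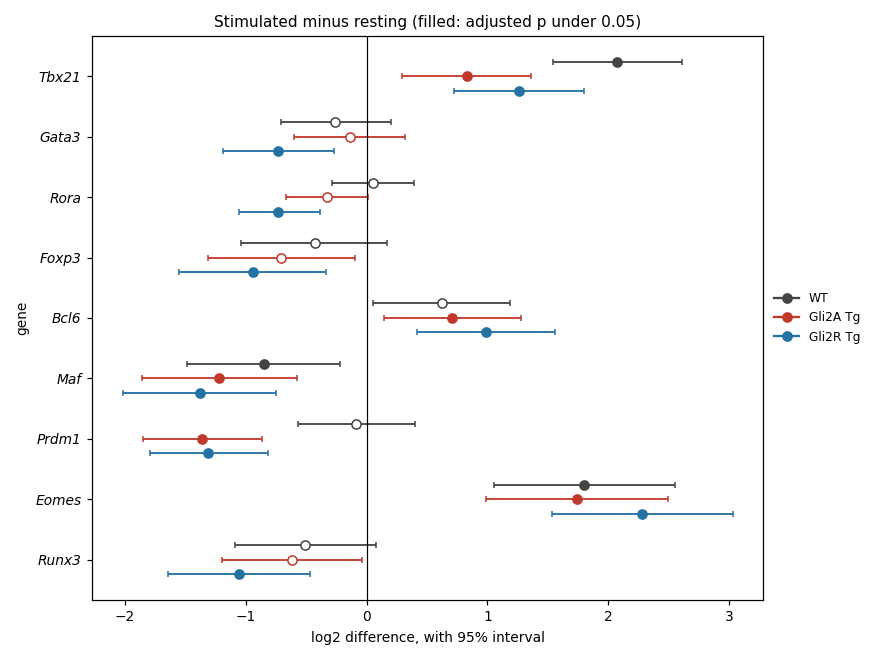
Stimulated minus resting difference (x axis, log2) of each of the 9 genes with its 95% interval, in WT, Gli2A Tg and Gli2R Tg cells; filled points have an adjusted p under 0.05. Tbx21 and Eomes lie to the right of 0 and Maf to the left in all 3 genotypes, and Prdm1 lies at -0.09 in WT (-0.53 and called with the deposited scaling alone) and at -1.36 and -1.31 in the transgenic cells.

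Whether the response differed between genotypes was tested with an interaction term, and no member was called. For Gli2A against WT 0.011% of all genes were called, for Gli2R against WT 0%, and for Gli2A against Gli2R 0.11%. At an unadjusted p under 0.05 in limma, 2, 3 and 0 of the 9 genes passed. The share of all genes at that threshold is not given, here or below, so such counts have no background and are not read as a result. For Prdm1 the response in Gli2A minus that in WT was -1.27 ± 0.32 (adjusted p = 0.197), and in Gli2R minus WT -1.22 ± 0.32 (adjusted p = 0.286), or -0.96 (adjusted p = 0.439) without replicate 3 of stimulated Gli2R. For Tbx21 the same terms were -1.25 ± 0.36 (adjusted p = 0.248) and -0.81 ± 0.36 (adjusted p = 0.548), and without replicate 2 of stimulated Gli2A the former was -0.93 (adjusted p = 0.365). For Rora, Gli2R minus WT gave -0.77 ± 0.22 (adjusted p = 0.316). For Gata3, Foxp3 and Runx3, called in Gli2R but not in WT, the terms were -0.47 ± 0.30, -0.51 ± 0.40 and -0.55 ± 0.39 (adjusted p = 0.693, 0.755 and 0.72). For Bcl6 they were 0.09 ± 0.38 in Gli2A and 0.37 ± 0.38 in Gli2R (adjusted p = 0.966 and 0.806). A call in 1 genotype and not in another is therefore not shown to be a difference between genotypes for any of the 9 genes. The interactions of both transgenic genotypes with WT share the WT arrays.

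Between genotypes, Rora was the sole call. In resting cells it was 1.70-fold higher in Gli2A (9.53, 9.60 and 9.83) than in WT (8.62, 9.04 and 9.01), a difference of 0.76 ± 0.16 (adjusted p = 0.0451) with every Gli2A array above every WT array. That is 1 of 9 genes where 0.55% of all genes were called. The call did not survive leaving out any of the 6 arrays: without resting WT replicate 1, 2 or 3 the difference was 0.63 (adjusted p = 0.147), 0.84 (0.109) and 0.82 (0.0745), and without resting Gli2A replicate 1, 2 or 3 it was 0.83 (0.0715), 0.79 (0.0914) and 0.68 (0.145). With the sex pattern as a covariate it was 0.66 (adjusted p = 0.262), and with the mean of all Rora probe sets 0.46 (0.29). Over single probe sets none of the 9 was called. Of the others, 1458129_at differed by 0.97 ± 0.35 (adjusted p = 0.345), 1436325_at by 0.84 ± 0.27 (0.262) and 1455165_at by 0.50 ± 0.22 (0.467). Resting Gli2A also had the highest myeloid sums, and their part in the Rora difference was not tested.

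Prdm1 and Tbx21 were also higher in every resting Gli2A array than in every WT array, without passing the test. The share of all genes that separate so is not given, and the separation describes these arrays only. Prdm1 differed by 0.79 ± 0.23 (adjusted p = 0.178) and Tbx21 by 0.60 ± 0.25 (adjusted p = 0.427). Rora, Prdm1 and Tbx21 were the members with an unadjusted p under 0.05 in limma, a threshold with no share of all genes beside it.

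In resting Gli2R against WT cells no member was called, beside 0% of all genes, and 2 had an unadjusted p under 0.05 in limma. They were Tbx21 (0.54 ± 0.25, adjusted p = 0.486) and Rora (0.36 ± 0.16, adjusted p = 0.45), both higher in Gli2R in every array. In resting Gli2A against Gli2R cells 2.4% of all genes were called and none of the 9, of which Rora had an unadjusted p under 0.05 in limma (0.40 ± 0.16, adjusted p = 0.2). The 3 resting comparisons share arrays, so they are not independent. For none of them is the share of all genes at the unadjusted threshold, or without overlap, given.

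After stimulation, no member was called in Gli2A against WT (0.137% of all genes), Gli2R against WT (0.044%) or Gli2A against Gli2R (0.231%), and 2, 2 and 1 had an unadjusted p under 0.05 in limma. These percentages are of called genes. The share of all genes at the unadjusted threshold, or without overlap between groups, is not given. Tbx21 was lower in all stimulated Gli2A arrays than in the WT arrays (-0.65 ± 0.25, adjusted p = 0.335; -0.33 without replicate 2). Prdm1 was lower in all stimulated Gli2R arrays than in WT (-0.82 ± 0.23, adjusted p = 0.249) and in all stimulated Gli2A arrays (-0.48 ± 0.23, adjusted p = 0.438). On its brightest probe set, Rora stood on opposite sides of WT in the transgenic cells, with neither difference called. It was 9.40, 9.38 and 9.20 in stimulated Gli2A, above WT at 8.87, 8.93 and 9.01 (0.39 ± 0.16, adjusted p = 0.367), and 8.65, 8.73 and 8.19 in stimulated Gli2R, below it (-0.41 ± 0.16, adjusted p = 0.425). Gli2A and Gli2R differed by 0.80 ± 0.16 (adjusted p = 0.0518), which misses the threshold, and by 0.64 (0.149) without replicate 3 of stimulated Gli2R. With median centring that difference was 0.94 (adjusted p = 0.0454), and it was called too with the deposited scaling (0.82, 0.0401), among genes above the median level (0.80, 0.0156), with a trended robust variance (0.80, 0.0201) and with a pseudocount of 64 (0.73, 0.0265). The mean of all Rora probe sets gave 0.40 (adjusted p = 0.386), and single probe sets ranged from -0.29 (1424035_at) and 0.00 (1458129_at) to 0.99 (1436325_at), none called.

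**Figure D4:**
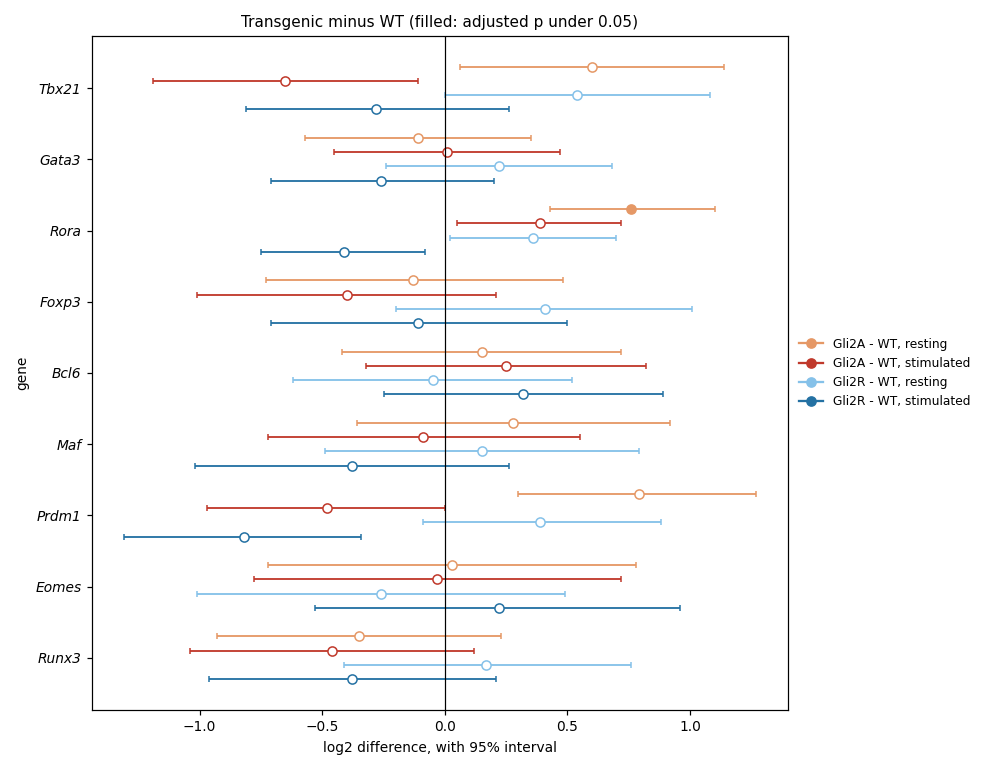
Transgenic minus WT difference (x axis, log2) of each of the 9 genes with its 95% interval, for Gli2A Tg and Gli2R Tg cells at rest and after stimulation; the filled point has an adjusted p under 0.05. The one filled point is Rora in resting Gli2A cells (0.76), and the Prdm1 and Tbx21 points lie right of 0 at rest and left of 0 after stimulation.

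Intervals show how large a difference the arrays leave room for. The 95% interval of the Gata3 difference in stimulated cells was -0.45 to 0.47 for Gli2A and -0.71 to 0.20 for Gli2R, both against WT. For Eomes the intervals were -0.78 to 0.72 and -0.53 to 0.96, and for Bcl6 -0.32 to 0.82 and -0.25 to 0.89. These intervals cover the brightest probe set only. The 2nd Bcl6 probe set differed by -0.42 in Gli2A and -0.44 in Gli2R, outside its gene's intervals, with neither called. The 2nd Eomes probe set differed by 0.34 and 0.60, also uncalled.

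Of 35 other measured transcription factors of helper fates, 11 rose and 8 fell in WT, 12 and 11 in Gli2A, and 11 and 9 in Gli2R, with medians of 0.13, 0.13 and -0.24. Irf4, which receptor signals induce and which most effector fates need, rose by 5.76, 5.75 and 4.81. Bhlhe40, a regulator of cytokine output, rose by 3.79, 2.98 and 2.59. Lef1, a factor of naive cells and early follicular helper cells, fell (-3.24, -2.89 and -3.18). Zbtb7b, which encodes the CD4 lineage factor ThPOK, fell (-2.96, -2.81 and -1.79). Klf2, which keeps naive cells circulating, fell in all 3 genotypes (-2.66, -2.32 and -3.18). Ascl2, an inducer of Cxcr5, fell in Gli2R (-2.86), beside differences of -0.65 in WT (adjusted p = 0.383) and -1.11 in Gli2A (0.12). Against WT, 0 of the 35 were called in either transgenic genotype, at rest or stimulated. In resting Gli2A against Gli2R cells Junb was lower (-2.90), Klf2 lower (-1.08) and Hlx, a partner of T-bet, higher (1.50).

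Among 27 measured structural relatives of the 9 factors, 6 rose and 3 fell in WT, 5 and 2 in Gli2A, and 5 and 2 in Gli2R, with medians of 0.26, 0.43 and 0.25. While Maf fell, the small Maf proteins rose: Maff by 2.34, 2.96 and 1.63, and Mafk by 2.02, 1.85 and 1.85 in WT, Gli2A and Gli2R, and Mafg by 1.50 in Gli2A. The Mafg mean also went from 9.13 to 10.3 in WT and from 9.22 to 10.24 in Gli2R. Small Maf proteins lack the activation domain of c-Maf. Prdm4 rose by 1.29, 1.44 and 1.26. Gata1, an erythroid factor, fell in WT (-1.56) and Gli2R (-1.24), and its mean went from 10.73 to 9.34 in Gli2A. The erythroid marker sums were 39100 to 54800 in resting and 2080 to 6810 in stimulated WT arrays. Those sums were 37400 to 96500 and 2560 to 6110 in Gli2A and 10700 to 24500 and 1610 to 2680 in Gli2R. Of the 7 erythroid markers 6, 6 and 4 fell in WT, Gli2A and Gli2R, and none was at 0. No relative was called between genotypes.

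Genes that mark each fate were counted in the same way. Each named gene is given in the comparisons in which it was among the largest called differences of its list, and a missing genotype does not mean no change. Of 15 Th1 genes, 11 rose and 4 fell in WT, 9 and 4 in Gli2A, and 9 and 4 in Gli2R. Ifng, the Th1 cytokine gene that T-bet activates, rose by 5.26, 6.12 and 2.73, and Tnf by 3.97 in WT and 3.80 in Gli2A. The receptor gene Il18r1 fell in Gli2A (-3.51) and Gli2R (-2.68), and it was higher in resting Gli2A than in WT cells (1.40 ± 0.25, adjusted p = 0.0199). In resting Gli2A against Gli2R cells Ifng (-2.74), Tnf (-1.35) and Cxcr3 (-0.90) were lower.

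Among 13 Th2 genes, 7 rose and 0 fell in WT, 6 and 1 in Gli2A, and 3 and 3 in Gli2R. Ccr8, a Th2 chemokine receptor, rose by 4.38, 4.21 and 4.19. Il4, the cytokine that GATA-3 and c-Maf activate, rose by 2.52 in WT and 3.80 in Gli2A, beside a difference of 0.40 in Gli2R. After stimulation it was higher in Gli2A than in WT (2.28 ± 0.37, adjusted p = 0.0262) and than in Gli2R (3.70 ± 0.37, adjusted p = 0.000587), and its response differed between Gli2A and Gli2R (3.40 ± 0.52, adjusted p = 0.019). In the same stimulated comparison with WT, Gata3 differed by 0.01 ± 0.21 and Maf, on its brightest probe set, by -0.09 ± 0.30. The 6 Maf probe sets ranged from -0.45 to 1.07 there, with none called. The part of either factor in the Il4 difference was not tested.

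Among 7 measured Th17 genes, 3 rose and 1 fell in WT, 2 and 1 in Gli2A, and 3 and 1 in Gli2R. Il17a rose by 3.98, 3.68 and 3.07, while Il6ra, a receptor chain for the cytokine that starts the Th17 fate, fell (-2.37, -3.57 and -2.59). Tgfb3 was higher in resting Gli2A than in WT cells (2.03 ± 0.35, adjusted p = 0.0187).

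Of 14 Treg genes, 6 rose and 4 fell in WT, 5 and 6 in Gli2A, and 6 and 5 in Gli2R. Foxp3 was called higher in no genotype, while Il2ra rose by 3.62, 3.40 and 2.96 and Tnfrsf9 by 3.76, 3.24 and 3.42, and Ctla4 rose by 2.45 in WT; all 3 are also induced in conventional T cells by receptor signals. Nt5e, the CD73 ectoenzyme, fell by 2.71 in Gli2R. Of 10 Tfh genes, 7 rose and 1 fell in WT, 6 and 1 in Gli2A, and 3 and 1 in Gli2R. Il21, the follicular helper cytokine, rose by 4.83 in WT and 5.45 in Gli2A, Icos by 2.89, 2.45 and 1.94, and Slamf6 fell (-2.31, -2.80 and -2.99). All of these counts stand beside the 41.7%, 42.9% and 42.3% of genes called in WT, Gli2A and Gli2R.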

How the data were processed

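Total RNA of 18 samples, in 6 groups of 3, was measured on Affymetrix arrays. The deposited table holds linear intensities of 45101 probe sets, which the authors scaled so that the 2% trimmed mean of each array is 500, as the values show; median intensities were 55.48 to 76.33. The tool affy is named in the submitters' processing notes, with no version. Intensities were changed to log2(value + 16) and quantile normalised over all probe sets. Genes were named from the platform annotation: 34945 probe sets had 1 symbol, 932 several and 9160 none. Each gene was read from its brightest probe set. limma 3.58.1 in R 4.3.3 fitted 6 group means to the 18 arrays (lmFit, eBayes) for 12 comparisons, with Benjamini-Hochberg adjustment over 18193 genes and calls at an adjusted p under 0.05. The fit was tested on simulated data. The number of arrays limits the precision. The 9 genes and all lists were chosen with earlier results of these data known. Every member is named; from the other lists, called genes with the largest differences were named, up to 4 for each stimulation comparison and up to 3 for the others. For each member the 2 genes of highest correlation are named, among genes with a mean over the median of all genes and without clone or predicted-gene names. Alternatives were another normalisation, another pseudocount, a filter on low genes, other uses of probe sets, a robust variance, the compared groups alone, the sex pattern, the replicate number as a block, and leaving out each array. Promoter windows are RefSeq's, GRCm38.p6.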

Additional observations from a re-analysis of the deposited data

How the results depend on the processing

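Over 108 member results and their alternatives, 1998 values were computed: 1923 stayed on their side of the threshold, 42 lost the call in the same direction, 29 gained one and 4 changed sign with a call in at least 1 of both fits. Of the 1923, 81 values in 33 results changed sign, all of them uncalled before and after. Averaging the probe sets of a gene gave these 4, Rora (0.51 in Gli2A, 0.39 in Gli2R) and Bcl6 (-0.20 and -0.21). Of the 9 members, 3 were called for stimulation in WT, and 6 with the deposited scaling, 5 with the mean of probe sets and 2 to 3 on leaving out an array. In Gli2A 5 were called, 3 with the compared groups alone, and 3 to 5 on leaving out an array, the lowest without resting replicate 2 or stimulated replicate 1 or 3. In Gli2R 9 were called, and 7 to 9 on leaving out an array. For resting Gli2A against WT the count of 1 became 0 with median centring, the deposited scaling, single probe sets, the mean of probe sets, a pseudocount of 1, the compared groups alone, the sex covariate and every array left out (0 to 0). For stimulated Gli2A against Gli2R the count of 0 became 1 with median centring, the deposited scaling, genes above the median, a trended robust variance and a pseudocount of 64. The cause was not tested. Median centring moved the median of all genes by 0.129 for stimulation in WT, 0.111 in Gli2A, -0.109 for stimulated Gli2R against WT and -0.122 for its interaction.

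The labels do not say that a replicate number is shared between groups. Residuals of same-numbered arrays correlated at -0.0577 to 0.104, with means of 0.0185, 0.00338 and 0.0409 against -0.0104 for different numbers. The highest pairs of numbers 1, 2 and 3 reached 0.0903, 0.0397 and 0.104, far from every pair exceeding 0.1, so the number was not taken as a pairing. In Gli2R 0 resting and 2 stimulated arrays had the male sex pattern. Same-numbered resting and stimulated arrays were therefore not all from the same mice. As a hint from the data, 12 of 18 arrays were closest to their own number. With the replicate block, members called were 5 for stimulation in WT, 7 in Gli2A and 9 in Gli2R, and 0 for resting Gli2A against WT.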

Other observations

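For each factor the 2 genes whose levels ran most alike over the 18 arrays were named by Pearson r, as a description. These were sought only among genes whose mean level lay over the median of all genes, with clone and predicted-gene names left out. The arrays share their 6 groups, so r holds the differences between groups as well as the spread within them. Closest to Tbx21 were Trmt11 (0.966), a tRNA methyltransferase subunit, and the kinase gene Akt1 (0.955), and closest to Eomes were Mphosph10 (0.963) and Ncoa5 (0.962). Maf ran with Cebpb (0.952), a myeloid and inflammatory transcription factor, and Pmaip1 (0.946). Prdm1 ran with Vwa5a (0.943) and Phip (0.942), Runx3 with Kri1 (0.933) and Tbc1d1 (0.904), and Foxp3 with Taf1b (0.921) and Pacsin1 (0.906). Bcl6 ran with Creld1 (0.904) and Tbc1d15 (0.902). Rora and Gata3 had the least alike partners: Reck (0.87) and Spsb1 (0.826) for Rora, and Akirin1 (0.845) and Rnf125 (0.835) for Gata3.

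Basophil and mast cell markers were listed for comparison: the 7 measured summed to 929 to 2170 over the 18 arrays, and in WT Gata2 rose (0.96) and Cpa3 fell (-1.07).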
